A study of Danio rerio with 40 samples.

Results

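The cytosolic ribosomal protein genes are the genes whose products, together with ribosomal RNA, form the large and small subunits of the ribosome. Members were chosen by name: symbols of the pattern rpl or rps followed by a number, plus rpsa, rplp0, rplp1, rplp2 and rplp2l, without the rps6k kinases. This gave 82 of the 25806 named genes, of which 47 carry large subunit names, 33 carry small subunit names, and 2 (rpl7l1 and rps19bp1) are named after a ribosomal protein but are not subunits. The rule used no expression value.

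The measurements were RNA-seq gene counts from whole brains of wild-type (AB) zebrafish about a year old, 20 females and 20 males. Within each sex, 10 fish received the Control diet and 10 received dry feed supplemented with 60% Gum Arabic (GA, an edible tree exudate rich in fibre) for 2 weeks. The count columns carry their own fish numbers and were tied to sex by the table that holds them, but not to diet, so each group of 20 mixes both diets, diet is not analysed here, and any diet effect is part of the spread between fish. Females and males shared tanks, and poly-A RNA was sequenced. Fish are named here by sex and by their order in the table.

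Ribosomal proteins are needed in near equal numbers, because each ribosome holds a single copy of nearly every one. Their mRNAs begin with a terminal oligopyrimidine (TOP) motif, through which the mTORC1 kinase and the RNA-binding protein LARP1 adjust their translation and stability as a group in mammals. In the brain, ribosomes are found in cell bodies, dendrites and glia, and mRNAs of ribosomal proteins are also carried into neuronal processes. In bulk tissue, fewer cells of a type and less RNA per cell cannot be told apart.

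Libraries held 9392143 to 19131404 counts assigned to genes. Genes encoded by mitochondrial DNA took 6.32% to 28.7% of them. The neuronal markers fixed for this tissue summed to 8002 to 13387 CPM (counts scaled to a common library size) in every library. Some libraries also held markers of other tissues: male 4 had skin keratin markers at 14429 CPM against a median of 22.4 CPM, female 9 had oocyte markers at 455 CPM against a median of 2.05 CPM, and male 20, which had the smallest library, had red blood cell markers at 71946 CPM against a median of 1808 CPM. The 3 libraries of a second flow cell were those of 1 female and 2 males. The part of these differences in the results was not tested.

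All 82 members were expressed and passed the filter on low counts. Together they took a lowest share of 2.37%, a median of 3.65% and a highest share of 4.35% of all counts in the female brains. In the male brains the lowest share was 2.35%, the median 3.49% and the highest 4.62%. The sexes overlapped almost completely, and the means were 3.56% ± 0.516 (SD, n = 20) in females and 3.495% ± 0.546 (SD, n = 20) in males. Across all fish the share differed 1.96-fold between the highest library (male 4) and the lowest (male 6). Male 6 also had 23.3% of its counts in mitochondrially encoded genes. When those genes were left out of the total, the lowest share was 2.53% (female 13) and the highest 5.49%, a 2.17-fold range.

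**Figure D1:**
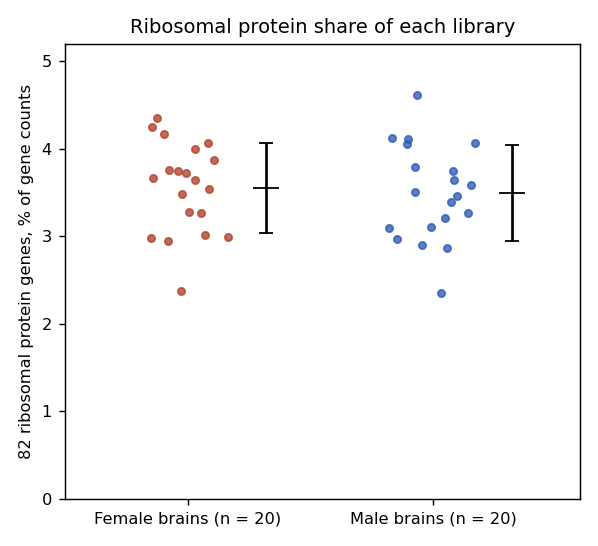
Percent of each library's gene counts that came from the 82 ribosomal protein genes, in female and male brains. Each point is a fish, and the bar beside the points gives the mean and SD. The points run from 2.37% to 4.35% in females and from 2.35% to 4.62% in males.

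Counts were scaled to CPM on library sizes adjusted by the trimmed mean of M values (TMM). On this scale the members ranged from a mean of 9.01 CPM (rps27l) to 1748 CPM (rplp0), with a median of 424 CPM. The counts are not divided by transcript length, so these levels do not rank the genes by number of mRNAs. Of the 82 members, 76 averaged above 100 CPM and 5 averaged below 50 CPM. The latter were rps27l, rpl7l1, rps8b, rps19bp1 and a second gene named rpl37 (ENSDARG00000076360). They include both members that are not subunits and copies of a more abundant gene.

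Females and males were compared to ask whether the level of the members differed by sex, with edgeR's quasi-likelihood test over 16875 genes. No member passed an adjusted p of 0.05, and none of the 82 had an unadjusted p under 0.05. No gene passed over the whole table either (0% called), and 2.23% of all genes tested (376 genes) had an unadjusted p under 0.05. DESeq2 and limma-voom also called no gene, and gave 390 and 279 genes with an unadjusted p under 0.05, none of them a member. The paper compared Control females with Control males, a smaller set of fish, and reported ier2a, egr1 and egr4 as higher in females. Those genes are not members. The members' log2 difference (female minus male) had a median of -0.02 and ran from -0.15 to 0.13, while the median of all genes was -0.00315. Of the members, 27 had a value above 0 and 55 a value below 0, and of all genes tested 8290 and 8585. When counts were scaled by library totals only, the members' split was 66 and 16. The median of all genes was then itself 0.04, against 0.03 for the members. The members' split was 47 and 35 without male 20, 59 and 23 without male 4, and 50 and 32 without female 13. Within the first flow cell (19 females, 18 males) it was 7 and 75. Under every other alternative run most members stayed below 0, as with DESeq2 (28 and 54), limma-voom (25 and 57) and without female 9 (14 and 68). The side of 0 on which most members fell therefore depended on the scaling and on single fish.

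The test left little room for a large difference in most members. The 95% interval reached a median of 0.20 to either side of the log2 difference, the interval of every member held 0, and only those of rps8b and rps27l reached beyond 0.5 in either direction. The widest belonged to rps27l, from -0.65 to 0.71. The ranges of females and males overlapped in all 82 members. The share over all genes was not computed, so this count does not set the members apart.

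**Figure D2:**
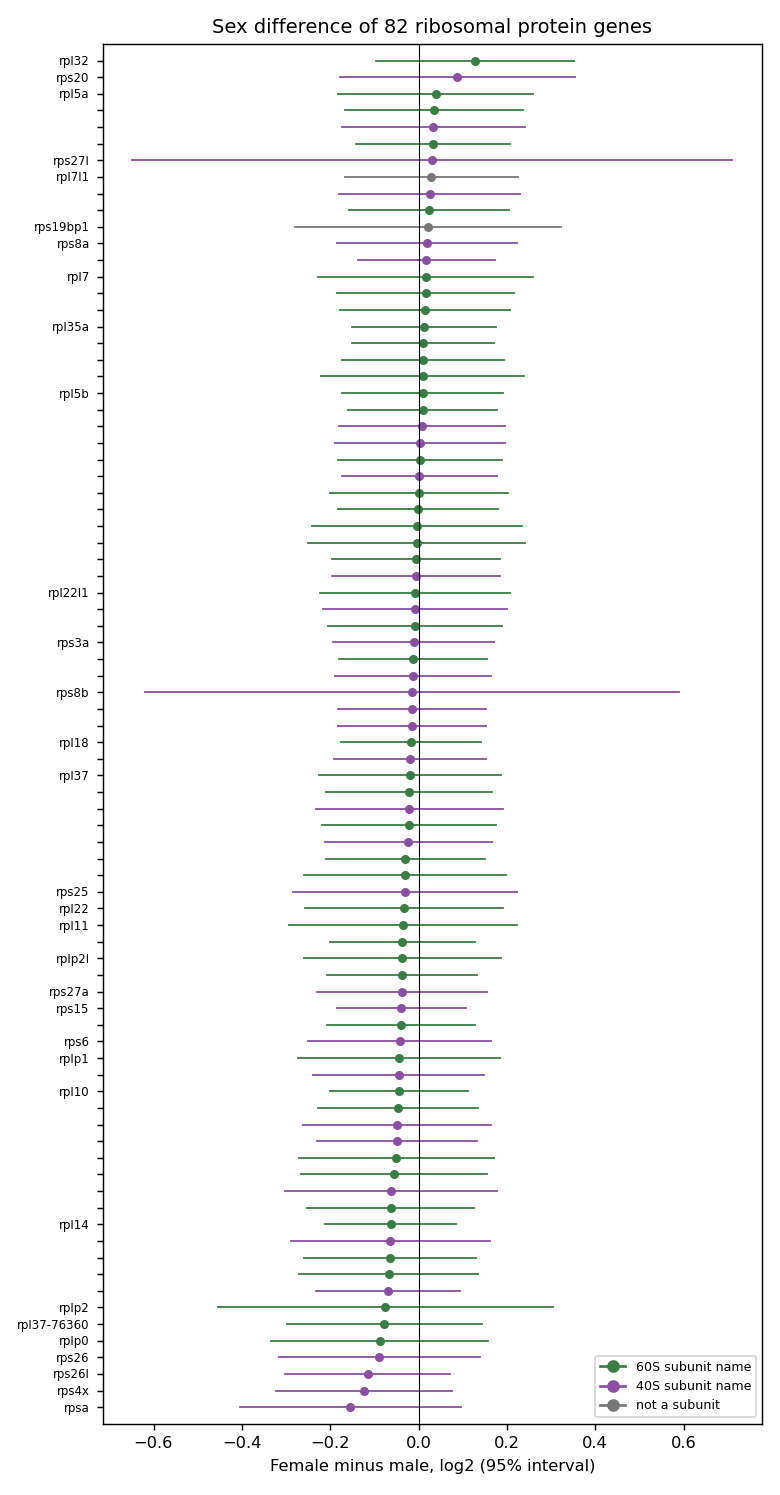
Female minus male log2 difference of each of the 82 genes (points) with its 95% interval (lines), from the edgeR fit to 20 females and 20 males, coloured by subunit, with the genes described in the text labelled. All intervals hold 0, and the points lie between -0.15 and 0.13.

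The member with the smallest p was rpsa, a small subunit protein also described in mammals as a laminin receptor. Its lowest, median and highest values were 624, 780 and 1179 CPM in females and 617, 809 and 2335 CPM in males. The top male value came from male 20, and the next highest fish (male 4) had 1400 CPM. The log2 difference was -0.15 ± 0.12 (SE; edgeR p = 0.219, adjusted p = 1.00), and it was -0.03 ± 0.10 (SE) without male 20.

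The small subunit proteins rps4x and rps26l followed. In females rps4x ran from 375 through a median of 493 to 658 CPM, and in males from 323 through 508 to 930 CPM. Its log2 difference of -0.12 ± 0.10 (SE) became -0.06 ± 0.09 (SE) without male 20, which held its highest value. For rps26l, a copy of the small subunit gene rps26, females had 163, 218 and 277 CPM (lowest, median, highest) and males had 152, 236 and 410 CPM. The log2 difference was -0.12 ± 0.09 (SE), and it was -0.06 ± 0.09 (SE) without male 20, its highest fish, and -0.07 ± 0.09 (SE) without male 4, the next. The large subunit gene rpl32 had the highest value among members, 0.13 ± 0.11 (SE), with 351, 538 and 878 CPM in females and 315, 545 and 780 CPM in males. The large subunit gene rpl14, next by p, had -0.06 ± 0.07 (SE), and -0.03 ± 0.07 (SE) without male 20.

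Between fish, the members varied less than most genes and largely together. The SD of log2 CPM over the 40 fish had a median of 0.30 over members and 0.75 over all genes tested, a comparison not matched for level. Low spread was not particular to the members. The median SD was 0.28 over translation factors and other TOP genes, and 0.35 over mitochondrial ribosomal protein genes. Over members, the highest fish exceeded the lowest by a median of 2.74-fold. Among the quietest members were rps15 (SD 0.21), rpl14 (0.22), rpl10 (0.23) and rpl18 (0.23). For rps15, a small subunit protein near the decoding region, the lowest, median and highest values were 341, 420 and 560 CPM in females and 330, 439 and 699 CPM in males. The members that varied most were rps27l (1.43), rps8b (1.16), rplp2 (0.62), rps19bp1 (0.53) and rps20 (0.42), described further on. In 44 of the 82 members the SD was larger in females than in males, a count that was not compared with all genes tested.

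To describe how far members moved together, each was correlated with the mean log2 CPM of the other members over the 40 fish, after each sex was centred on its own mean. All points come from the same libraries, and the scaling of a library is common to all of its genes. Pearson's r had a median of 0.86, with quartiles of 0.75 and 0.90. It exceeded 0.8 in 55 members and 0.5 in 75. Within the sexes the median was 0.87 over females and 0.85 over males. Over the 16793 other genes the median r with the same mean was 0.04. Of all 16875 genes tested, members included, 63 (0.373%) exceeded 0.8 and 552 (3.27%) exceeded 0.5. The 37 fish of the first flow cell gave a median of 0.85 over members. Among the closest to the rest were rpl35a (0.95), rps3a (0.94) and rpl37 (0.94), from both subunits. The other genes were set against the members' own mean, which is not like for like. Within their own lists, the median r was 0.82 for oxidative phosphorylation subunits and 0.96 for mitochondrially encoded genes. For the other gene lists it lay between -0.06 (mTORC1 and control of TOP mRNAs) and 0.74 (ribosomal protein genes that the name rule missed). Joint movement this tight was therefore not particular to the members.

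**Figure D3:**
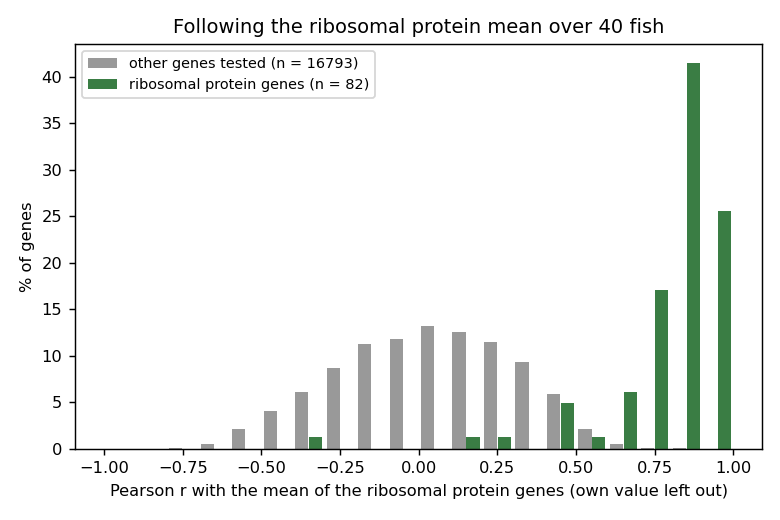
Distribution of Pearson's r with the mean of the ribosomal protein genes over 40 fish, centred within each sex, for the 82 members (own value left out of the mean) and the 16793 other genes tested. Vertical axis, percent of genes. Members pile up around their median of 0.86, other genes around 0.04.

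The shared movement followed particular fish. Male 4 held the highest value of 34 members, male 20 that of 21 and female 5 that of 13. Female 13 held the lowest value of 39 members and male 13 that of 24. Male 4 had the most skin keratin markers and male 20 the most red blood cell markers. Female 11, second by red blood cell markers (39886 CPM), held the highest value of 0 members and the lowest of 2. Female 13 had the lowest radial glia (1243 CPM against a median of 4338 CPM) and microglia markers (38.9 CPM against 146 CPM). Female 13 also had the lowest endothelial (16.1 CPM against 51.6 CPM) and the highest muscle markers (225 CPM against 13.6 CPM). Male 13 was on the second flow cell. Over all fish, the members' mean had r = 0.39 with the summed skin markers, 0.37 with those of microglia, 0.36 with those of oligodendrocytes, 0.27 with those of the pituitary and 0.27 with those of oocytes. It had r = 0.20 with the endothelial markers, 0.14 with the radial glia markers and -0.26 with the neuronal markers, and the sums for retina, red blood cells and muscle lay between -0.01 and 0.12. By rank the order changed. Spearman's rho was 0.24 for skin, 0.26 for microglia, 0.30 for pituitary, and 0.35 for both oligodendrocytes and oocytes. The oocyte and pituitary sums were near the floor in most fish, with medians of 2.05 and 3.63 CPM. Only 1 of 5 oocyte markers and 2 of 7 pituitary markers passed the filter on low counts. The percent of mitochondrially encoded counts had r = 0.32 and the library total r = 0.08. The part of cell makeup in the shared movement was not tested. Leaving out female 13, male 20 or male 4 in turn gave a median r of 0.85, 0.87 and 0.84.

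**Figure D4:**
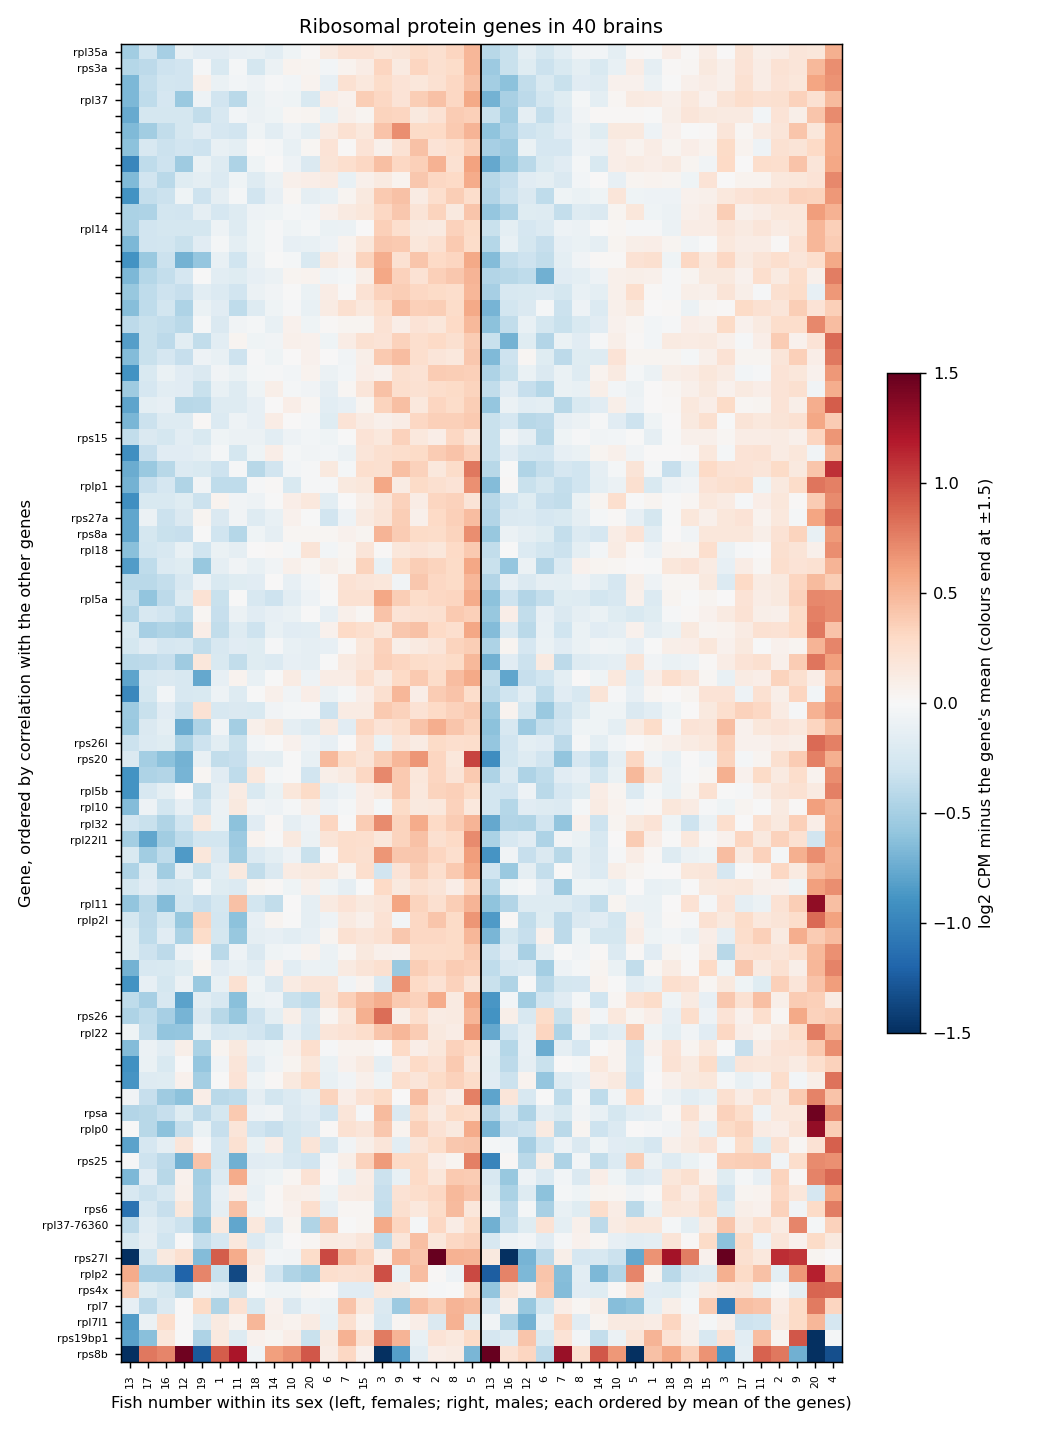
Log2 CPM of the 82 genes (rows) in 40 fish (columns), minus each gene's mean. Rows are ordered by correlation with the other genes and columns by mean level within each sex, and genes described in the text are labelled. Columns change colour as a block from the lowest fish (female 13 and male 13) to the highest (female 5 and male 4), and the bottom rows, with rps8b last, do not follow.

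The stalk of the large subunit, which recruits the translation factors that hydrolyse GTP, is formed by rplp0 and its partners rplp1 and rplp2. In females rplp0 had 1104, 1699 and 2485 CPM (lowest, median, highest), and in males 1048, 1718 and 4222 CPM. The top value was again male 20, and the next fish had 2485 CPM. Females had 390, 630 and 1022 CPM of rplp1, and males 407, 613 and 1109 CPM. These genes followed the rest with r = 0.71 for rplp0 and 0.89 for rplp1. The partner rplp2 did so less, with r = 0.44, and r was 0.07 on library totals only. It had 200, 502 and 1013 CPM in females and 217, 495 and 1152 CPM in males, a 5.75-fold range over all fish that was high in male 20, female 5 and female 3 and low in female 11, male 13 and female 12. Its copy rplp2l ran from 164 to 395 CPM in females and from 139 to 452 CPM in males, with r = 0.80 to the rest. The rplp2 part of the counts of this pair lay between 55.1% and 78.3% in the 40 fish, with a median of 66.2%.

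The large subunit proteins of rpl5a, rpl5b and rpl11 bind the smallest ribosomal RNA before it joins the subunit, and in mammals they also bind the p53 regulator MDM2. Females had 243, 365 and 548 CPM of rpl5a, and males 239, 365 and 603 CPM. For rpl11 the values were 315, 523 and 747 CPM in females and 328, 468 and 1245 CPM in males, with male 20 highest. The log2 differences were 0.04 ± 0.11 (SE) for rpl5a, 0.01 ± 0.09 (SE) for rpl5b and -0.03 ± 0.13 (SE) for rpl11. rpl5a took 51.6% to 67.8% of the counts of the rpl5a and rpl5b pair, and was the larger in all 40 fish.

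Among small subunit proteins, rps6 is the substrate of the kinase that acts below mTORC1. It had 175, 384 and 523 CPM in females and 269, 382 and 641 CPM in males, and r = 0.66 to the rest. rps27a encodes a small subunit protein fused to ubiquitin, and had 296, 500 and 701 CPM in females and 376, 503 and 899 CPM in males, with r = 0.88. rps20 was among the members that varied most, with 212, 332 and 700 CPM in females and 181, 333 and 583 CPM in males. It followed the other members with r = 0.84. The name table calls this gene a processed transcript, and the other 81 members protein coding.

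The clearest exception was rps8b, a copy of the small subunit gene rps8a. It had a lowest, median and highest value of 4.27, 24.2 and 61.6 CPM in females and 1.05, 28.2 and 63.3 CPM in males, a 60.2-fold range. The lowest fish, male 20, had 8 counts, and without it the range was 14.8-fold. Its r with the mean of the others was -0.36, the lowest of the members, and 70 of the other members correlated negatively with it. In the same fish rps8a had 428, 749 and 1190 CPM in females and 494, 721 and 1144 CPM in males, and followed the rest with r = 0.88. rps8b took 0.154% of the pair's counts at the least and 11.4% at the most.

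The negative r of rps8b with the mean depended on scaling and on single fish. It was -0.00418 on library totals, -0.22 without male 20 and -0.57 without female 13. Its relation to rplp2 moved less. Over 40 fish rps8b and rplp2 had a Pearson's r of -0.79 and a Spearman's rho of -0.85, with r = -0.83 in females and -0.78 in males. The r was -0.81 without the 2 fish farthest from the median of rps8b, -0.78 within the first flow cell and -0.78 on library totals. For rps8b and rps8a the r of -0.29 was less steady: rho was -0.51, r was -0.70 without the same 2 fish, and it was 0.000331 on library totals. The small subunit genes rps4x and rps25 also ran against rps8b (r = -0.78 and -0.74), and rps25 ran with rplp2 (r = 0.92). On library totals r with rps8b was -0.58 for rps4x and -0.69 for rps25, and rps25 had 0.87 with rplp2. These pairs were picked after their values were seen, from 3321 pairs of members, and are given as a description.

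**Figure D5:**
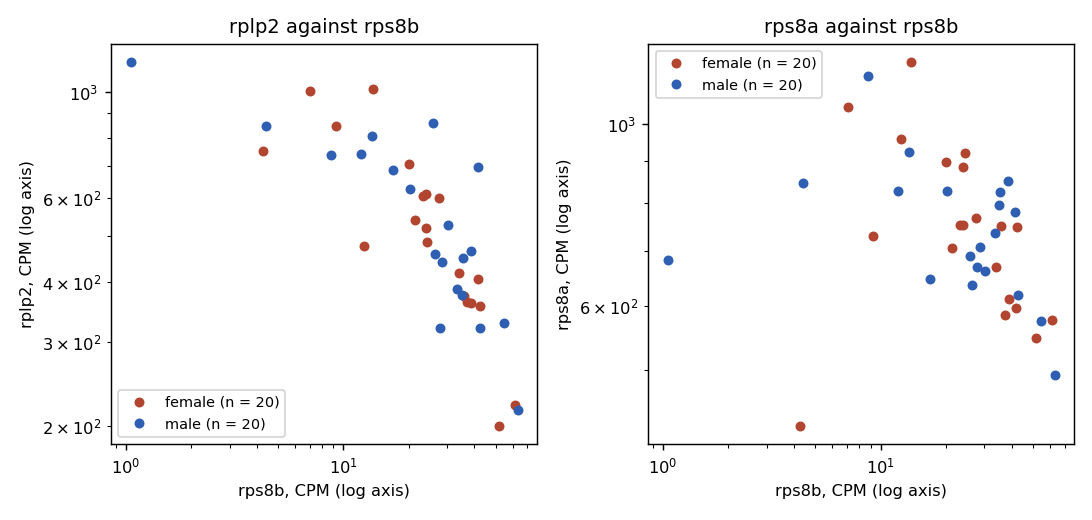
CPM of rplp2 (left) and rps8a (right) against rps8b in 40 fish, both axes logarithmic, each point a fish coloured by sex. rplp2 falls from 1152 to 217 CPM between the fish with the least (1.05 CPM) and the most rps8b (63.3 CPM), while the r of rps8a with rps8b on the log2 scale is -0.29, and -0.70 without the 2 fish farthest from the median of rps8b.

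The genes most like rps8b over the 40 fish were not ribosomal. The 10 with the highest r (0.93 to 0.96) included napaa and napgb, which encode attachment proteins of the vesicle fusion machinery, got1, an aspartate aminotransferase, sncgb, a synuclein, and eno2, the enolase of neurons. eno2 ran from 28.6 through 305 to 598 CPM. Of the genes tested, 353 (2.09%) had an r above 0.8 with rps8b and 219 (1.30%) one below -0.8. For rplp2 the counts were 250 (1.48%) and 132 (0.782%). A strong r with either gene was therefore not particular to the pair of rps8b and rplp2. Of the marker sums, radial glia had r = 0.74 with rps8b (0.67 without male 20), endothelium 0.53, microglia 0.39, muscle -0.39 and oocytes -0.36 (rho = -0.60). The oocyte sum was near the floor in most fish, with a median of 2.05 CPM. The neuronal markers had r = 0.02, and the sums for skin, red blood cells, oligodendrocytes, pituitary and retina lay between -0.24 and 0.08. The library total had r = 0.48 and the percent of mitochondrially encoded counts -0.24. Their part in the pattern was not tested.

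rps27l, a copy of the small subunit gene rps27 that p53 induces in mammals, was listed at 0 counts in female 13 and male 16. In the other fish it lay between 4.07 and 23.1 CPM, with medians over all 20 fish of 8.72 CPM in females and 7.44 CPM in males. The log2 difference was 0.03 ± 0.34 (SE). Its SD of 1.43 rests in part on these libraries, and was 1.12 without female 13 but with male 16 still included. The r with the rest was 0.49, and 0.34 without female 13.

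The pairs of copies held different balances. rps26 and rps26l had nearly equal parts, with rps26 at 39.0% to 63.5% of the pair's counts and the larger in 11 of 40 fish. rpl22, which binds RNA and shares its role with rpl22l1 in mammals, took 74.8% to 89.1%. The main rpl37 took 93.1% to 96.5% against its second copy. Counts of near-identical copies depend on how the quantifier shares reads between them, so these splits are uncertain. rpl7 followed the rest weakly (r = 0.42), with 313, 449 and 655 CPM in females and 219, 485 and 786 CPM in males.

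The members that are not subunits also followed the rest weakly. rpl7l1, whose product acts in the nucleolus, had 10.8 to 27.96 CPM in females and 11.8 to 27.5 CPM in males, with r = 0.29. rps19bp1, whose product binds the small subunit protein of rps19, had 15.5 to 46.9 CPM in females and 4.74 to 52.01 CPM in males, with r = 0.15. Without male 20, which was its lowest fish, r was 0.57.

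Related genes were compared on the same scale. Of the ribosomal protein genes of the fixed list that the name rule missed, r with the members' mean was 0.84 for rps27.1, 0.81 for faua (a small subunit protein fused to a ubiquitin-like part), 0.73 for rps27.2 and 0.16 for faub. RPL37A (r = 0.83) was missed only because the name table writes it in capitals. Among the genes that were no members, naca, a chaperone subunit at the ribosome, also stood close to the mean (r = 0.85).

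The 45 tested translation factors and other genes with TOP mRNAs had a median r of 0.39. Of these, 16 exceeded 0.5 (35.6%, against 3.27% of all genes tested). They included eif3m (0.78), eef1da (0.76) and rack1 (0.75), a scaffold on the small subunit. eef1a1l1, an elongation factor, had r = 0.68, and nacad had -0.72. The 26 genes of mTORC1 and the control of TOP mRNAs had a median r of 0.08. None of them exceeded 0.5, and 7 lay below 0 (26.9%, against 44.5% of all genes tested). The lowest of this list was larp1, which binds TOP mRNAs, with r = -0.72. Genes outside the lists lay as low, among them adgrd1 and pgbd5 (both -0.73). larp1 ran from 13.7 through 30.9 to 73.5 CPM. The 47 ribosome biogenesis genes had a median r of 0.15 and the 74 mitochondrial ribosomal protein genes one of 0.06, although the latter had a median r of 0.48 among themselves. The 100 tested subunits of oxidative phosphorylation encoded in the nucleus had 0.05 with the members and 0.82 among themselves. In the sex comparison no gene of these lists was called, and their median log2 differences lay between -0.03 and 0.03. The 13 genes encoded by mitochondrial DNA had a median of -0.29, all below 0, with a smallest unadjusted p of 0.106 (edgeR). Their median r among themselves was 0.96, so their shared sign is not 13 separate observations.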

How the data were processed

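Brain RNA was sequenced from 40 fish, with GRCz11 named as the genome build per the labels. The authors processed poly-A paired reads with nf-core/rnaseq and deposited salmon expected counts per gene, not normalised, in a table of females and a table of males. The strandedness setting was unstranded in the deposited sample sheet, so overlapping antisense genes cannot be told apart. The authors' base mean, a score giving normalised counts averaged over fish, was used only as a check: it lay within 1% of the mean computed here for 82 of 82 members. The deposited log2 fold changes, p-values and adjusted p-values of the authors' own diet comparison were not used, and 80 columns of repeated per-fish counts were not used.

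Estimated counts were rounded, filtered with filterByExpr by sex and scaled by TMM, and sex was tested with edgeR 4.0.16 (R 4.3.3; quasi-likelihood, Benjamini-Hochberg over 16875 genes, threshold 0.05). Log2 CPM used a prior count of 2. SE is the log2 difference divided by the square root of F. Alternatives used DESeq2 1.42.0, limma 3.58.1 and sva 3.50.0. The fit was tested on simulated data. No pair of libraries agreed within sampling noise (lowest chi-square per degree of freedom 17.7). Fish are separate animals that shared tanks, and tank was not modelled. Members and lists were chosen with earlier results of these data known. Named genes were the 5 with the smallest p, the 5 most and 5 least variable, paralogs, stalk genes and non-subunits; some genes that this rule names are not reported here. A ranking by level per length was not made, since transcript lengths were not used here. Other named genes were chosen after their values were seen.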

Additional observations from a re-analysis of the deposited data

How the results depend on the processing

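No ribosomal protein gene was called for sex under any of the 14 alternatives run. Over all genes, the count of called genes was 0 in each except without a filter on low counts, where 13 of 27947 genes were called. The members' median log2 difference moved from -0.02 to 0.03 on library totals only, and lay between -0.05 and 0.02 in the other alternatives. On library totals the median of all genes was 0.04. Alternatives chosen after seeing the data were the first flow cell only, flow cell as covariate, leaving out female 13, female 9 or male 4, and leaving out mitochondrially encoded genes. Within the first flow cell, 7 members were above 0 and 75 below. The median r with the other members lay between 0.83 and 0.87 in every alternative run for it. Without the non-subunits the mean summed level was 35450 CPM against 35498 CPM. No paired analysis was possible because the count columns carry no replicate number of the labels. Low counts in some fish limit rps8b and rps27l. For rps27l, male 16 had 0 counts in a library of 14109686 counts, against a median of 13950600 over all fish. The part of depth in these low counts was not tested.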
